A study of Mus musculus with 9 samples.

Results

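The transcripts described here are those that BMP4 and TGF-β1 moved in the same direction in cultured mouse sclerotome, the ventral part of the somite that gives rise to the vertebrae and the intervertebral discs. The 6 treated arrays were set against the 3 untreated arrays, and a gene was kept when its mean log2 change had the same sign with each factor. By this rule 29160 of 45037 non-control probe sets (64.7%) and 11752 of 18193 genes (64.6%) were members, 6100 of these genes having a higher mean and 5652 a lower mean with both factors, whether or not they passed a test. Sclerotome ventral to the neural tube was dissected from E11.5 mouse embryos after the notochord had been removed, dissociated and plated as micromass cultures, which are dense drops of mesenchymal cells that can form cartilage. The 3 groups, each of 3 arrays, were untreated cultures, cultures given BMP4 at 50 ng/ml and cultures given TGF-β1 at 5 ng/ml, the treatment lasting 8 h, and all 3 groups grew in medium with serum, ascorbic acid and β-glycerophosphate. The treatment record starts the factors after a night in culture, whereas the growth protocol has them in the medium added upon attachment, and the sources do not settle which was done. The embryos were wild type, and neither the strain nor how many embryos were combined in a culture was stated in the sources used here. The experiment was set up on 3 occasions, and the p values therefore rest on the variation among those repeats.

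BMP4 and TGF-β1 belong to the same family of secreted ligands. BMP4 signals mainly through receptors that phosphorylate Smad1, Smad5 and Smad8, and TGF-β1 mainly through receptors that phosphorylate Smad2 and Smad3. Both branches share Smad4 and the inhibitory Smad7. In the axial skeleton, BMP signalling is known for promoting cartilage, and TGF-β signalling for its part in fibrous tissue of the disc and in tendon.

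Promoter sequence was available from RefSeq (build GRCm38.p6) for 17 of the 24 genes with the largest common change. The 250 bases before the start site are shown for 4 of them, a homeobox gene and a matrix gene that rose and a Wnt modulator and a peptidase that fell, because they hold different numbers of Smad-type motifs. Capitals mark CAGAC on either strand (read as GTCTG on the other) and GGCGCC. Cux2 has a further start site in the table, and the window farther upstream is shown.
Cux2 promoter, chr5:122049852-122050101, minus strand: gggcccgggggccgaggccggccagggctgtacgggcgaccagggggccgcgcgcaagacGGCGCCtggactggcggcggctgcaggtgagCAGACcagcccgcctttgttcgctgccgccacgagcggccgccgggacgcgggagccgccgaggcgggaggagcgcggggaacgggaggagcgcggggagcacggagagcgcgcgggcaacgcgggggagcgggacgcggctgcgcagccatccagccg
Thbs4 promoter, chr13:92794819-92795068, minus strand: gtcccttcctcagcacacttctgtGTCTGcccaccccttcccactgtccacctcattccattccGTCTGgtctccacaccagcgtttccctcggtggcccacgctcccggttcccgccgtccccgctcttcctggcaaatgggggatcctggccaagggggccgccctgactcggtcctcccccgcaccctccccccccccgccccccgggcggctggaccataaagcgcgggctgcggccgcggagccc
Sfrp2 promoter, chr3:83766071-83766320, plus strand: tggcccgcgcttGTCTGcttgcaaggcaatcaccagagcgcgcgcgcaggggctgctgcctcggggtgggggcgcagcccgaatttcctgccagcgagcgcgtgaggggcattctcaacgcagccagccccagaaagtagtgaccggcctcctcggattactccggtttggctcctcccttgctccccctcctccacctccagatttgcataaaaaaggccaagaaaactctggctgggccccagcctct
Enpep promoter, chr3:129332750-129332999, minus strand: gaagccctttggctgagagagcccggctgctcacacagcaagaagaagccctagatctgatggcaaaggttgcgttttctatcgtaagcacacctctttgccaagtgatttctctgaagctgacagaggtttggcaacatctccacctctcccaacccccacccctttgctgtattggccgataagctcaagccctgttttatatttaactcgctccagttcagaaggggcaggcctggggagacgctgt
Within these windows, Cux2 held CAGAC and GGCGCC, Thbs4 held CAGAC at 2 places, Sfrp2 held it at 1 place, and Enpep held neither. Of the other rises with a promoter, Chac1, Cda, Plcxd3 and Rgs2 held at least 1 motif, and Gadd45b, Chad and Sdr39u1 held neither. Of the other falls, Mme held a motif in some of its windows, and Lepr, Arhgap20, Sned1, Abca9 and Dkk2 held neither. Among the promoter windows of all measured genes (the 250 bases before the start), CAGAC was found on either strand in 41.5% of 18109 and GGCGCC in 14.1%. For genes called higher with each factor, CAGAC was found in 47.5% of 120 windows and GGCGCC in 21.7%, and for genes called lower with each factor, in 37.2% and 11.3% of 231 windows. The median GC content of the same windows was 57.6% for all measured genes, 65.0% for the higher genes and 60.8% for the lower genes, so the set with the most GGCGCC was also the richest in G and C. The Smad palindrome GTCTAGAC, which reads the same on both strands and holds neither CAGAC nor GTCTG, was found in 0.0% of the windows of higher genes, 0.433% of those of lower genes and 0.193% of all. A further motif, TGATGNAA, the amino acid response element, was found in 4.17%, 3.9% and 2.39% of them. These matches describe the letters of the windows and are no evidence of binding.

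Called falls outnumbered called rises. In the contrast of the mean of the 2 treatments with untreated, 399 same-sign genes were higher and 689 were lower at an adjusted p under 0.05 (limma, moderated linear model of the 9 arrays), which is 2.19% and 3.79% of the 18193 genes. Their median change was 0.55 (log2) for the higher genes and -0.52 for the lower ones, and 47 rose and 71 fell by at least 2-fold (0.258% and 0.39%). When each factor had to pass the test alone, 121 genes were higher and 233 were lower (0.665% and 1.28% of genes). The remaining higher genes had passed the test with BMP4 only (148), TGF-β1 only (118) or neither (12), and the remaining lower genes with BMP4 only (225), TGF-β1 only (201) or neither (30). Over all genes, 3.45% were called higher and 4.51% lower with BMP4, and 2.54% and 4.21% with TGF-β1. Of the called genes, 305 of the 399 and 554 of the 689 had all 6 treated arrays beyond all 3 untreated arrays (3.52% and 5.83% of all genes were so placed upward and downward). The same untreated arrays enter both changes, so a deviation in them alone would move both the same way. That the signs match was set by the rule and is no result.

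Probe sets called with each factor numbered 185 higher and 370 lower (0.411% and 0.822%). Those called in the mean contrast were 673 higher and 1139 lower (1.49% and 2.53%). They came to 399 and 511 without the untreated array numbered 1, to 406 and 591 without the untreated array numbered 2 and to 426 and 690 without the TGF-β1 array numbered 1. Without the 3 arrays numbered 2 they were 374 and 489. The SD of all centred values ran from 0.18 to 0.26 across arrays. Each gene is shown by its probe set of largest variance. Of the 659 called same-sign genes with more than 1 probe set, 244 had 2 or more called the same way. Most same-sign members changed little, since in 6480 of the 11752 genes the smaller of the 2 changes was under 0.1 (log2), and in 52 it was at least 1. At the edge of the rule, Gnb5, Col26a1 and Osbpl1a were kept with a smaller change of -0.00, -0.01 and -0.02, and Greb1, Ywhah and Ptger2 were left out with a change of 0.00, -0.01 and -0.01 for the factor that turned the other way.

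**Figure D1:**
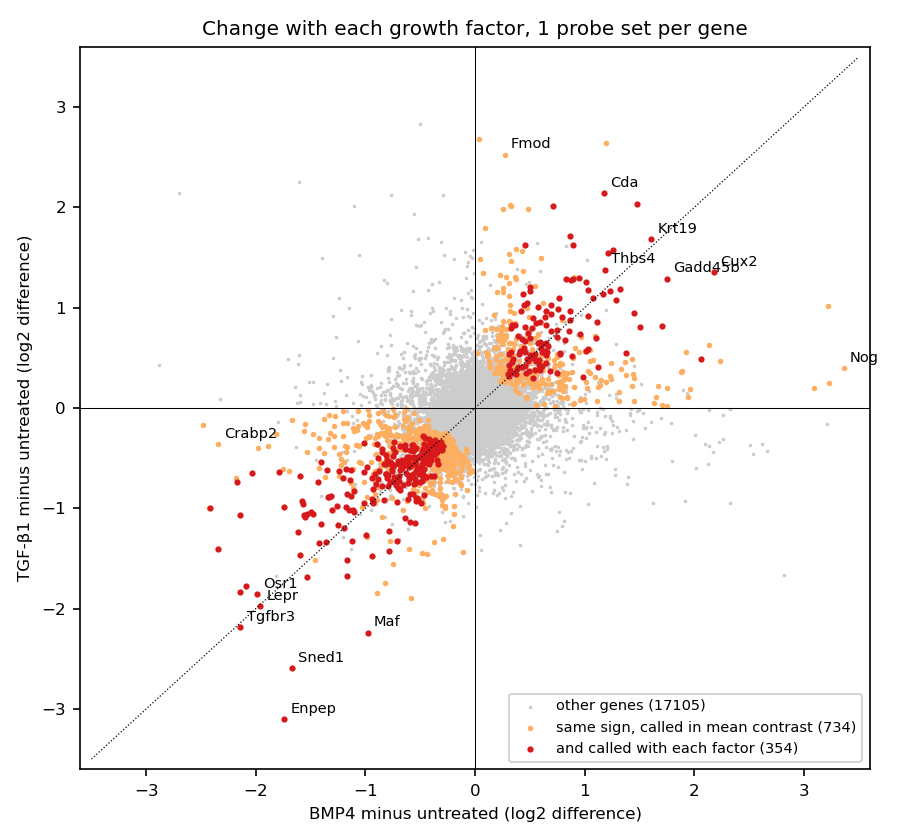
Change with BMP4 (x axis) and with TGF-β1 (y axis) against untreated, in log2 units, for 18193 genes; each point is a gene. Red points, 354 genes called with each factor in the same direction, lie to the lower left and upper right of the centre, with Tgfbr3, Osr1 and Lepr near the dotted line of equal change and Enpep and Sned1 below it. Both axes use the same 3 untreated arrays.

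Transcripts for a TGF-β co-receptor and for a transcription factor of connective tissue were among the largest falls. The 24 genes with the largest common change were picked among called genes whose 6 treated arrays lay beyond all 3 untreated ones. For these genes that separation was set by the choice and is no result. Values are log2 signals centred on the median of the 9 arrays for each probe set, so 0.00 is the middle array and levels cannot be compared between genes. Tgfbr3, which encodes betaglycan, a co-receptor that presents TGF-β ligands to the signalling receptors, read 1.88, 2.45 and 1.90 on the untreated arrays, 0.12, -0.30 and 0.00 with BMP4 and -0.06, -0.15 and -0.11 with TGF-β1. All 3 untreated arrays lay far above all 6 treated ones, and the treated groups overlapped each other. The difference was -2.16 ± 0.14 (SE, n = 6 treated and 3 untreated arrays, limma adjusted p = 0.00014), a 4.47-fold fall. With each factor on its own it was -2.14 (BMP4) and -2.18 (TGF-β1). Another Tgfbr3 probe set fell by 0.69 with an adjusted p of 0.056 and did not pass. Osr1, a zinc finger transcription factor of early mesoderm and connective tissue, read 1.75, 2.13 and 1.59 untreated, -0.31, 0.00 and -0.18 with BMP4 and -0.21, -0.09 and 0.20 with TGF-β1. Here too the untreated arrays stood apart and the treated groups did not. Its difference was -1.92 ± 0.13 (limma adjusted p = 0.00019). In such bulk cultures, fewer cells of a type and less RNA per cell cannot be told apart.

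The other large falls included genes for secreted and surface proteins. Arhgap20, encoding a GTPase-activating protein, read 1.55 to 2.22 untreated and -0.59 to 0.04 on the treated arrays, and it fell by 1.99. Abi3bp, an extracellular matrix protein, fell by 1.93 and Sned1, a matrix glycoprotein, by 2.13. Enpep, aminopeptidase A, which cleaves angiotensin II, read 1.24, 2.38 and 1.26 untreated, 0.01, 0.00 and -0.35 with BMP4 and -1.60, -1.37 and -1.44 with TGF-β1. The 3 groups did not overlap, and the fall was larger with TGF-β1 (-3.10) than with BMP4 (-1.74, limma adjusted p of the difference 0.012). The Wnt modulators Dkk2 and Sfrp2 fell by 1.53 and 1.39. The transporter gene Abca9 fell by 1.61, and Scara5, a ferritin receptor, by 1.88, each with a further probe set that did not pass (-0.14 and 0.09). Lepr, the leptin receptor, read 0.88, 2.31 and 1.05 untreated and -1.03 to 0.06 on the treated arrays, a difference of -1.97 ± 0.35 (limma adjusted p = 0.013), with 2 of its 4 probe sets called. Mme, the membrane peptidase neprilysin, differed by -1.49 (adjusted p = 0.038), passing with neither factor alone (0.062 for BMP4 and 0.059 for TGF-β1). The call of Mme was lost without any of 7 single arrays, with -1.02 (adjusted p = 0.094) without the untreated array numbered 2 and -1.65 (0.078) without that numbered 1, and its other probe set did not pass (-1.17, adjusted p = 0.10).

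The largest rises common to both factors were smaller than the largest falls. Cux2, a homeobox gene, read -1.07, -1.32 and -1.54 on the untreated arrays, 0.84, 0.96 and 0.81 with BMP4 and -0.08, 0.21 and 0.00 with TGF-β1. No group overlapped another, and the rise was 2.18 with BMP4 and 1.35 with TGF-β1 (limma adjusted p of the difference 0.003), with 2 of 3 probe sets called. Thbs4, a thrombospondin of tendon and other matrices, read -1.12, -1.14 and -1.25 untreated, 0.04, 0.00 and 0.00 with BMP4 and 0.14, 0.26 and 0.23 with TGF-β1. Its SE was the smallest of the 24 genes, and it rose by 1.28 ± 0.06 (limma adjusted p = 7.3e-05). Gadd45b, a stress and growth arrest gene, rose by 1.52 and was called in 3 of 3 probe sets. Myo1d, an unconventional myosin, rose by 1.38, while its other probe set did not pass (0.34, limma adjusted p = 0.28). Chac1, whose product degrades glutathione, rose by 1.42. Ntf5, a neurotrophin, rose by 1.26. Cda, cytidine deaminase, rose by 1.18 with BMP4 and 2.14 with TGF-β1 (adjusted p of the difference 0.007). Rgs2, a brake on G protein signalling, rose by 1.15 with 3 of 4 probe sets called, and Plcxd3 by 1.20. Sdr39u1 differed by 1.75 in 1 probe set and by -0.02 in its other, so its change is uncertain.

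Krt19 and Chad were highest on the treated arrays numbered 2. Krt19, a keratin of simple epithelia and notochord, read 0.07, 1.12 and -0.04 with BMP4 and 0.13, 1.25 and 0.00 with TGF-β1, against -1.31, -1.26 and -1.08 untreated. The treated arrays numbered 2 were highest for both factors. All 6 treated arrays stood above the untreated ones, as the choice of the gene required. The difference was 1.64 ± 0.30 (limma adjusted p = 0.016). Within a number, Krt19 was higher by 1.39, 2.38 and 1.05 with BMP4 and by 1.44, 2.51 and 1.08 with TGF-β1. Without the untreated array numbered 1 its difference was 1.60 (limma adjusted p = 0.069) and without that numbered 2 it was 1.62 (0.059). Chad, chondroadherin, a cartilage matrix protein, read -0.12, 0.96 and 0.00 with BMP4 and 1.35, 2.67 and 1.15 with TGF-β1, against -0.86, -0.66 and -1.23 untreated. Its difference of 2.64 with TGF-β1 passed the test and the difference of 1.19 with BMP4 did not (limma adjusted p = 0.13). The mean contrast of Chad missed the threshold without the untreated array numbered 1 (1.95, adjusted p = 0.051) or 3 (1.76, 0.050). Among the 24 genes, 22 passed with each factor alone. They had been ranked by the smaller of their 2 changes, which favours passing with each factor. They were also picked with all 6 treated arrays beyond all 3 untreated ones. That the 6 differences taken within a number had 1 direction in all 24 was thus set by the choice and is no result.

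**Figure D2:**
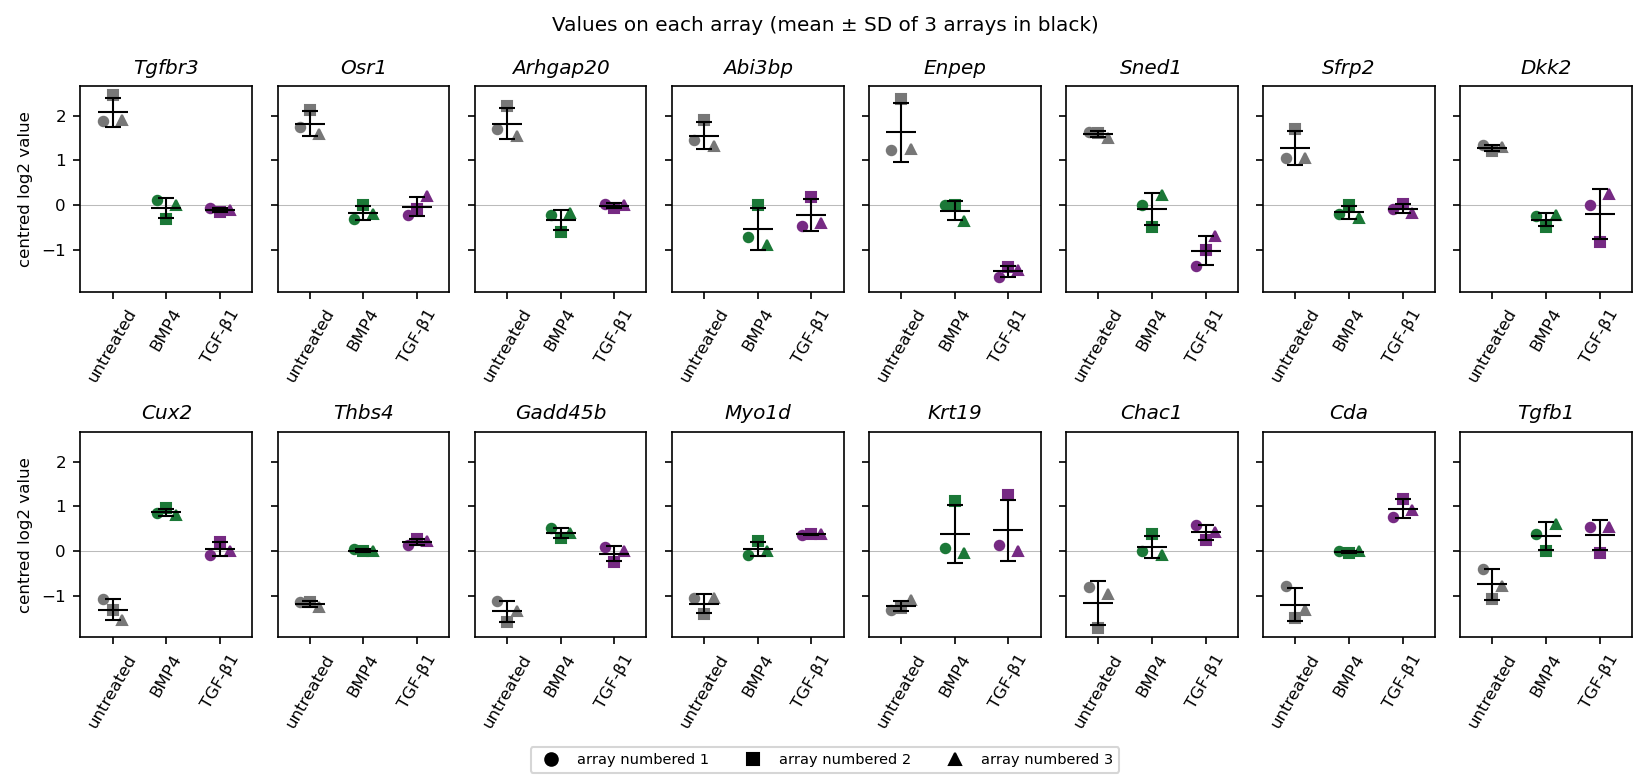
Centred log2 value (y axis) of 16 genes on each of the 9 arrays, by treatment (x axis); symbols mark arrays numbered 1, 2 and 3, and black marks show the mean ± SD of 3 arrays. In the upper row the untreated arrays sit above all treated ones, in the lower row below them. That separation was a condition for picking all of these genes except Tgfb1. Enpep and Sned1 also part TGF-β1 from BMP4, whereas Tgfbr3 does not.

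The size of a shared change often differed between the factors. The direct contrast of TGF-β1 with BMP4, which does not use the untreated arrays, was called for 359 of the 1088 same-sign genes called in the mean contrast, or 33% against 10.1% of all genes. The mean contrast also takes in genes driven by 1 factor, so this share is not particular to the genes both factors moved. The change was larger with BMP4 for 87 rises and 129 falls and larger with TGF-β1 for 76 rises and 67 falls. Of the 354 genes called with each factor, 28 higher and 34 lower genes had a called difference, and in 251 the larger change was under 1.5 times the smaller on the log2 scale. The median of their smaller changes was 0.55 and the lowest was 0.28. A p that misses the threshold does not show equal responses. For Tgfbr3, TGF-β1 minus BMP4 was -0.04 (adjusted p = 0.92), for Lepr -0.01 (0.99) and for Osr1 0.13 (0.70).

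**Figure D3:**
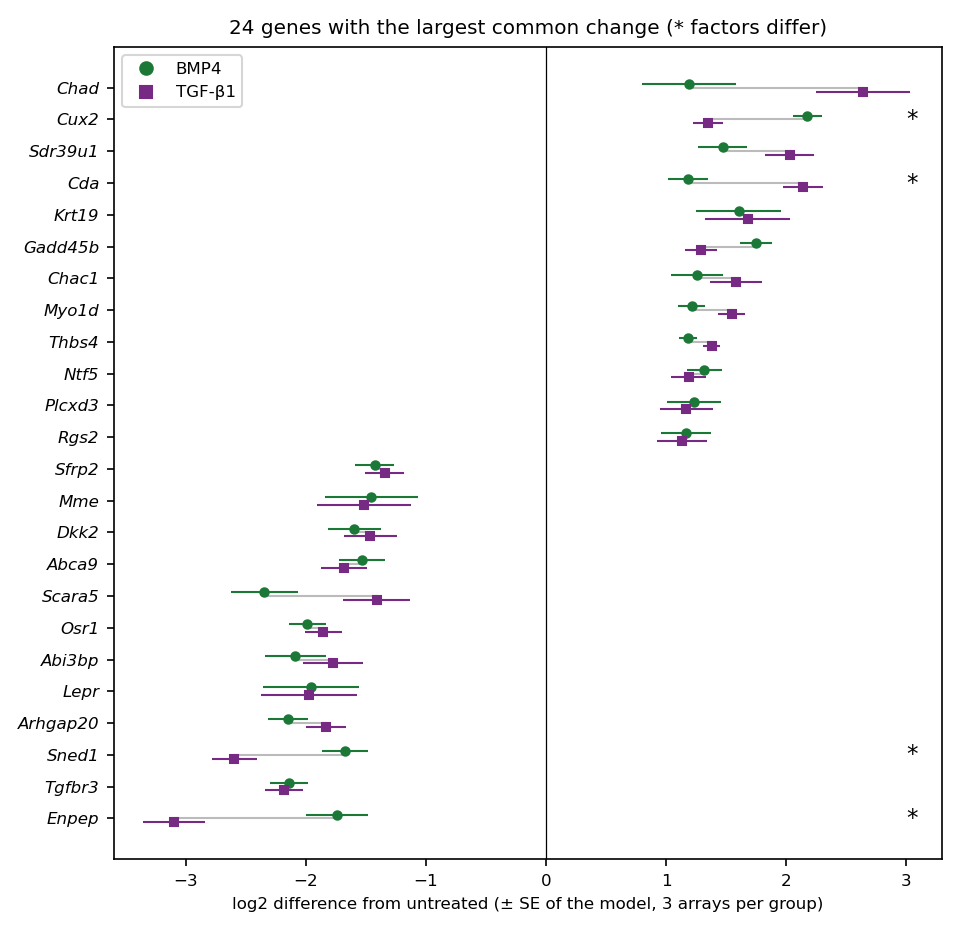
Log2 difference from untreated (x axis) with BMP4 (circles) and TGF-β1 (squares), ± SE of the model with 3 arrays per group, for the 24 genes with the largest common change (y axis). Stars mark the 4 genes, Cux2, Cda, Sned1 and Enpep, whose 2 changes differed at an adjusted p under 0.05; the pairs of Lepr, Tgfbr3 and Rgs2 nearly coincide.

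Within the TGF-β family itself, a receptor, a ligand and an inhibitory Smad rose while a co-receptor and a signal transducer fell. Counts below are of measured list members called in the mean contrast with the same sign, against 5.98% of all genes called and a median change of 0.01 over all genes. Over all the genes given with values, 170 were called, and the calls of 113 held with each array left out. The call was lost without 5 or more of the single arrays for 27 of them, which were Mme, Bmpr2, Tgfb2, Bgn, Gfra2, Ifit1, Masp1, Nr4a3, Ccnb2, Mki67, Ebf1, Dbp, Cdh15, Myh3, Bmp6, Col6a1, Emx2, Fbln1, Foxp1, Kitl, Nkd1, Sox8, Sox9, Tcf4, Ucma, Vcam1 and Wnt5b. For 30 more, the call was lost without 1 to 4 single arrays, and these were Krt19, Chad, Gdf5, Bmper, Dlx2, Fn1, Osr2, Acan, Jag1, Fgf5, Cxcl13, Fosl2, Klf2, Bub1b, Hk2, P4ha2, Erg, Mrc1, Adamts18, Adamts3, Bmp1, Dcc, Il6st, Kif3a, Klf10, Lgr5, Skil, Twist1, Wnt11 and Zfhx4. Of 18 receptors and co-receptors, 2 were higher and 2 lower. Acvr1, a type I receptor for BMPs, rose by 0.73 and passed with each factor, Bmpr2 by 0.61, and the co-receptor gene Rgma fell by 0.41. Of 22 ligands, 2 were higher and 4 lower. Tgfb1 read -0.39, -1.07 and -0.77 untreated, 0.39, 0.00 and 0.61 with BMP4 and 0.54, -0.04 and 0.55 with TGF-β1. The untreated arrays lay below all treated ones, and the rise was 1.08 with BMP4 and 1.09 with TGF-β1, although 1 of its 2 probe sets was not called. Gdf5 (-0.83), Tgfb2 (-0.62), Inhbb (-0.51) and Bmp1 (-0.43) fell in the mean contrast, and Bmp6 rose by 0.33.

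Among 23 Smads and intracellular brakes, 4 were higher and 1 was lower. Smad7, an inhibitor of both branches, rose by 1.12 with BMP4 and by 0.41 with TGF-β1 and passed with each. Smad3, a transducer of TGF-β signals, fell by 1.18 with BMP4 and by 0.61 with TGF-β1, with 1 of 3 probe sets called. Pmepa1, a brake on TGF-β signalling, differed by 0.48 with BMP4 (adjusted p = 0.085) and rose by 1.99 with TGF-β1. Bambi, a decoy receptor, rose by 1.94 with BMP4 and differed by 0.11 with TGF-β1 (adjusted p = 0.62), and Skil rose by 0.49 in the mean contrast. Of 22 secreted antagonists of BMP and activin, 4 were higher and 0 lower. Fst and Fstl3, which bind activin, rose with each factor, by 0.44 and 0.50 with BMP4 and by 1.14 and 1.17 with TGF-β1. Nog, a BMP antagonist, rose by 3.36 with BMP4, while its change of 0.40 with TGF-β1 did not pass (adjusted p = 0.22), and Bmper rose by 1.43 with BMP4 against 0.22 (adjusted p = 0.53).

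Of the 21 BMP target genes, 7 were higher and 0 lower (33.3%), and 4 more were called over the 6 treated arrays but had opposite signs with the 2 factors. Only Smad7 of these 7 passed with each factor. Dlx2, a homeobox gene, was at 3.23 with BMP4 and 0.25 with TGF-β1, with untreated arrays from -1.58 to -0.06, and Gata2 at 1.65 and 0.11. Of the 24 TGF-β target genes, 4 were higher and 1 lower, and Smad7 again was the one to pass with each factor. Fn1, fibronectin, differed by 0.31 with BMP4 (adjusted p = 0.37) and rose by 1.12 with TGF-β1.

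Connective tissue and sclerotome progenitor transcription factors held many called falls. Of 39 measured, 12 were lower and 1 was higher (33.3% called, median change -0.39). Besides Osr1, those that passed with each factor were Maf, Ebf2, Foxd1 and Zfhx4. Maf, a bZIP transcription factor, read 0.75, 1.60 and 0.60 untreated, 0.01, 0.00 and 0.00 with BMP4 and -1.21, -1.21 and -1.34 with TGF-β1. Its groups did not overlap, and 4 of 6 probe sets were called. Ebf2 fell by 0.67, Foxd1 by 0.64 and Zfhx4 by 0.41. Osr2 (-0.95), Uncx (-0.91), a gene of the caudal half-somite, Ebf1 (-0.80), Foxp1 (-0.66), Tbx18 (-0.54), Twist1 (-0.43) and Tcf4 (-0.39) fell in the mean contrast, with TGF-β1 changes that did not pass except in Ebf1. Foxp1 was called in 1 of 8 probe sets and Tcf4 in 2 of 6. Klf2 was the member that rose (0.73). Pax1, which marks sclerotome, read 0.36, 1.26 and 0.30 untreated, -0.72, -0.26 and -0.60 with BMP4 and -0.10, 0.48 and 0.00 with TGF-β1. Its difference of -0.84 in the mean contrast did not pass (limma adjusted p = 0.062). With BMP4 alone Pax1 fell by 1.17 and passed (adjusted p = 0.024), while its change of -0.51 with TGF-β1 did not (0.31). Because the table keeps no levels, the sclerotome label could not be checked on these arrays against the level of Pax1 or Pax9. The study had checked the freshly dissected tissue by RT-PCR. It reported high Pax1, little or no Pax3, which marks myotome and neural tube, and no detected T, a notochord marker.

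Surface and secreted genes of mesenchymal progenitors gave 7 lower and 0 higher of 24 (29.2%, median -0.19). Enpep, Lepr, Scara5 and Cxcl12 passed with each factor. Cxcl12, a chemokine of stromal cells, read 0.85, 0.84 and 0.96 untreated and -0.92 to 0.00 on the treated arrays, and it fell by 1.11. Angptl1 fell by 1.03, Kitl by 0.69 and Vcam1 by 0.60 in the mean contrast. Without the 3 arrays numbered 2, the transcription factor list had 9 lower and 1 higher (23.1% and 2.56%) and the surface list 6 lower and 0 higher (25% lower). All genes then gave 1.79% lower and 1.42% higher.

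Matrix genes moved in both directions. Of 30 thrombospondins and matricellular genes, 2 were higher and 5 lower. Ccn3 fell by 1.31, Smoc2 by 1.34 and Efemp1, a fibulin, by 1.27, each with both factors, while Fbln5 rose by 0.83 and Fbln1 fell by 0.32. Ccn3 read 1.27, 0.79 and 1.01 untreated and -0.74 to 0.15 on the treated arrays, so the groups did not overlap. Of 28 cartilage matrix and Sox genes, 6 were higher and 0 lower (21.4%, median 0.35), but 0 passed with each factor. Papss2, which makes the sulphate donor for proteoglycans, was at 3.22 with BMP4 and 1.01 with TGF-β1 (adjusted p = 0.19), Acan, aggrecan, at 1.89 and 0.37 (0.42), and Sox9 at 1.75 and 0.02 (0.97). Sox8 (0.57) and Ucma (0.49) rose in the mean contrast.

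Of 28 tendon and fibrous matrix genes, 2 were higher and 2 lower, and Col6a2, a chain of collagen VI, fell by 0.45 with BMP4 and 0.46 with TGF-β1. Col6a1 was the other to fall, and without the 3 arrays numbered 2 the list had 2 higher and 0 lower (7.14% higher, against 1.42% of all genes). Fmod, fibromodulin, was at 0.27 with BMP4 (adjusted p = 0.57) and 2.53 with TGF-β1, and Bgn, biglycan, at 0.02 (0.94) and 0.55. Of 38 matrix proteases and inhibitors, 5 were higher and 5 lower. The aggrecan-cleaving family members Adamts1 (-1.01), Adamts5 (-0.63) and Adamts15 (-0.73) and also Adamts12 (-1.12) fell with each factor. Htra1, a serine protease, rose by 0.45 with BMP4 and 1.63 with TGF-β1, and Adamts3, a procollagen peptidase, rose by 0.48 and 0.47. Adamts20 rose by 1.05 in the mean contrast and Adamts6 by 0.92, whereas Adamts18 fell by 0.78.

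Of 54 Wnt genes, 10 were lower and 2 were higher (22.2%), although the median was 0.06. Dkk2, Sfrp2, Frzb (-0.71) and Rspo1 (-0.97) fell with each factor, and these encode secreted modulators of Wnt signals. Rspo1 read 0.85, 0.98 and 0.73 untreated and -0.50 to 0.14 on the treated arrays. Wnt5a (-0.72), Wnt5b (-0.82), Wnt11 (-0.55), Lgr5 (-0.74) and Fzd2 (-0.52) fell in the mean contrast, as did Rspo2, at -0.60 with BMP4 (adjusted p = 0.063) and -1.41 with TGF-β1. Nkd2, an intracellular Wnt inhibitor, rose by 0.45 with BMP4 and 1.03 with TGF-β1, and Nkd1 rose by 0.29 in the mean contrast.

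Other signalling lists held fewer called members. Of 68 homeobox genes outside the Hox clusters, 2 were higher and 6 lower, with Shox2 (-0.60) passing with each factor and Emx2 (-0.70) in the mean contrast. Without the 3 arrays numbered 2 the balance turned, to 5 higher and 2 lower (7.35% and 2.94%, against 1.42% and 1.79% of all genes). Of 24 Notch genes, 3 were higher and 0 lower: Hey2 rose by 2.06 with BMP4 and 0.49 with TGF-β1, Hey1 by 1.67 with BMP4 against 0.22 (adjusted p = 0.45), and the ligand Jag1 by 0.40 in the mean contrast. Of 17 hedgehog genes, limma called 0 with the same sign in either direction, with 3 at an unadjusted p under 0.05. A further 1 was called over the 6 treated arrays but had opposite signs with the 2 factors. Of 41 FGF and ERK feedback genes, 3 were higher and 1 lower, with Fgfrl1 at 0.98 and 0.31, Fgf21 at 0.26 (adjusted p = 0.31) and 1.99, and Fgf5 at -0.99 and -0.16 (0.56), BMP4 given before TGF-β1. Of 45 genes of other receptor tyrosine kinases and their ligands, 2 were higher and 4 lower, among them Egfr (-0.99), Gfra1 (-0.90) and Gfra2 (-0.94, 1 of 5 probe sets called).

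Insulin-like growth factor genes gave 0 higher and 2 lower of 17. Igfbp5 read 0.77, 1.38 and 0.69 untreated, -1.31, -1.76 and -1.34 with BMP4 and 0.02, -0.17 and 0.00 with TGF-β1, and it fell by 2.42 and 1.00. Igf1 fell by 2.18 with BMP4, and its change of -0.70 with TGF-β1 did not pass (adjusted p = 0.13). Of 18 retinoic acid genes, 3 were higher and 3 lower. Aldh1a1 rose by 0.90 with BMP4 and 1.62 with TGF-β1, while Aldh1a2, the enzyme that makes retinoic acid in the embryo trunk, fell by 1.14 and 0.88. The retinoic acid degrading enzyme gene Cyp26b1 (1.38) rose and Crabp2 (-1.35) fell in the mean contrast, and for Crabp2 the change with TGF-β1 was -0.36 (adjusted p = 0.35).

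Of 50 chemokines, cytokines and receptors, 3 were higher and 4 lower, and 1 and 3 without the 3 arrays numbered 2 (2% and 6%, against 1.42% and 1.79% of all genes). Cxcl13 fell by 1.34 and Il6st, the receptor subunit gp130, by 0.74, each with both factors, and Cxcr4 rose by 0.78 in the mean contrast. Il33 fell by 2.48 with BMP4 against -0.17 with TGF-β1 (adjusted p = 0.80). Of 30 interferon response genes, 0 were higher and 3 lower, with Gbp7 (-0.69) and Ddx58 (-0.49) passing with each factor and Ifit1 (-0.46) in the mean contrast. Without the 3 arrays numbered 2, 1 of the 30 was lower (3.33%, against 1.79% of all genes). Complement genes gave 0 higher and 3 lower of 16, namely Colec12 (-1.10), Masp1 (-0.86) and Serping1 (-0.60). Of 27 immediate early and AP-1 genes, 5 were higher and 0 lower (18.5%, median 0.31), and 0 passed with each factor. Fosl2 was at 1.88 with BMP4 and 0.36 with TGF-β1 (adjusted p = 0.46), Nr4a3 at 1.32 and 0.16 (0.69), Myc at 1.00 and 0.09 (0.65), and Klf10 at 0.58 (0.053) and 0.72. Without the 3 arrays numbered 2, 10 of the 27 were higher (37%, against 1.42% of all genes).

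Growth and metabolism lists differed in their called share, and some lay near the 5.98% of all genes. Of 49 cell cycle and DNA replication genes, 0 were higher and 3 lower (6.12%, near the share of all genes). These were Bub1b (-0.35), Ccnb2 (-0.31) and Mki67 (-0.30), and 0 were called without the arrays numbered 2. Of 29 hypoxia and glycolysis genes, 3 were higher and 1 lower (13.8%), with Egln3 (0.71) and P4ha2 (0.64) passing with each factor, Hk2 at 0.81 and Epas1 at -0.62. Of 28 fat cell and lipid genes, 0 were higher and 5 lower (17.9%). Lpl, lipoprotein lipase, fell by 0.55 with BMP4 and 1.14 with TGF-β1, and Angptl4, its inhibitor, by 0.85 and 0.77. Contractile and actin genes gave 1 higher (Cald1, 0.53, 1 of 5 probe sets called) and 1 lower (Synpo2, -0.95) of 27, or 7.41%. Of 19 circadian clock genes, 0 were higher and 1 lower (Dbp, -1.14), or 5.26%. Of 46 regulators of G protein signalling and cyclic nucleotide enzymes, 4 were higher and 1 lower (10.9%), with Rgs5 at 1.51 and 0.81 beside Rgs2, and Rgs10 at 0.22 (adjusted p = 0.34) and 1.32. Of 12 reference genes, 0 were called in limma, with 1 at an unadjusted p under 0.05.

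Guidance and adhesion genes were mixed. Of 66 axon guidance genes, 3 were higher and 9 lower (18.2%, median -0.11). The receptors Plxnc1 (-1.13), Unc5d (-0.98) and Dcc (-0.49) fell with each factor, Nrp1 (-0.64) and Nrp2 (-0.72) fell in the mean contrast, and Ntng1 rose by 1.71 with BMP4 against 0.03 (adjusted p = 0.94). Of 59 integrins, laminins and cadherins, 4 were higher and 6 lower. Cdh10 rose by 1.14 with 1 of 4 probe sets called, Lama4 fell by 0.79, and Cdh22 was at 1.92 with BMP4 and 0.55 (adjusted p = 0.23) with TGF-β1.

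**Figure D4:**
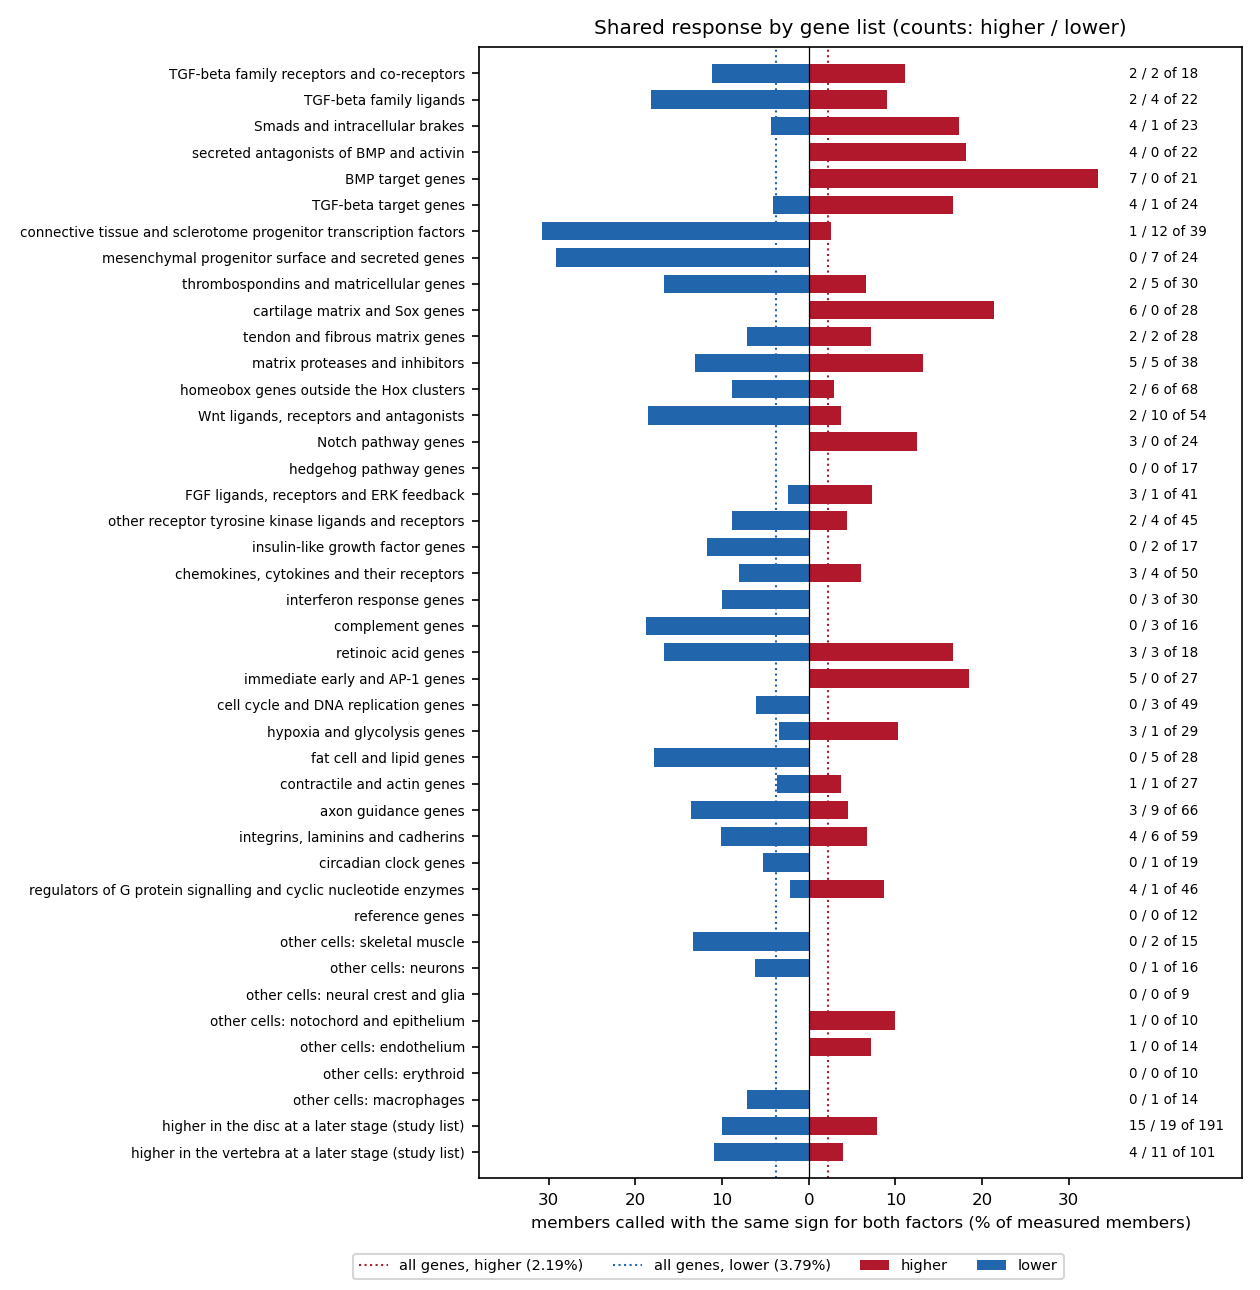
Share of measured members (x axis, percent) called in the mean contrast with the same sign for both factors, higher to the right and lower to the left, for 42 lists (y axis), with the counts of higher and lower genes at the right. Dotted lines mark all genes (2.19% higher, 3.79% lower); BMP target genes extend farthest to the right and the progenitor transcription factors farthest to the left. The lists were chosen with earlier results of these data known, so these shares are no test.

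Markers of other cells that the dissection could hold moved with some of these results. Skeletal muscle markers had 0 higher and 2 lower of 15 (Cdh15, -0.40, and Myh3, -0.39; 0 called without the arrays numbered 2), and their mean ran from 0.06 to 0.24 on the untreated arrays, -0.04 to 0.00 with BMP4 and -0.15 to -0.10 with TGF-β1. Macrophage markers had 0 higher and 1 lower of 14 (Mrc1, -0.61), or 7.14% against 5.98% of all genes, with means of 0.03 to 0.31, -0.07 to 0.08 and -0.20 to 0.02. Erythroid markers had 0 called of 10 in limma and 5 at an unadjusted p under 0.05, with means of -0.19 to 0.77 untreated, -0.29 to 0.04 with BMP4 and -0.35 to 0.12 with TGF-β1. The untreated array numbered 2 was the low one there, and 5 were called lower without the arrays numbered 2 (50%, against 1.79% of all genes). Neuron markers had 0 higher and 1 lower of 16 (Nefl, -1.42), or 6.25%, and neural crest and glia 0 of 9 with 1 at an unadjusted p under 0.05. Notochord and epithelium had 1 higher and 0 lower of 10 (Krt19), or 10%, and endothelium 1 higher and 0 lower of 14 (Erg, 1.18), or 7.14%. With levels not kept, which of these markers were near zero could not be read. Their part in the falls of progenitor genes was not tested.

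Lists from the study hold genes higher in the disc or in the vertebra at a later embryonic stage. Of 191 disc genes, 15 were higher and 19 lower (17.8%), and of 101 vertebra genes, 4 were higher and 11 lower (14.9%). Abi3bp and Agtr2 (-1.02) of the disc list fell with both factors, and Krt19 and Erg rose.

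A further 5 lists were drawn up after the values had been seen, so they describe the called genes and get no test. Genes of amino acid uptake, the amino acid response and one-carbon metabolism had 14 higher and 0 lower of 48 (median 0.27). Besides Chac1, Slc7a1 (0.92) and Slc7a3 (0.85), which carry basic amino acids, Mthfd2 (0.85) and Shmt2 (0.48), which are mitochondrial folate enzymes, and Trib3 (0.74) rose with each factor. Trib3 read -0.47, -0.93 and -0.43 untreated and 0.00 to 0.32 on the treated arrays. Atf4 itself differed by 0.52 (limma adjusted p = 0.067), although 1 of its 3 probe sets, a different one, was called higher. Ddit3 differed by 0.02 (0.97). Genes of protein folding and export in the endoplasmic reticulum had 18 higher and 0 lower of 44 (median 0.34). Fkbp11 rose by 0.71, Manf by 0.49 and Herpud1, which acts in degradation of misfolded proteins, by 0.58, while Hspa5, the chaperone BiP, differed by 0.03 (adjusted p = 0.91). Fkbp11 read -0.52, -0.64 and -0.53 untreated, 0.00, 0.02 and -0.12 with BMP4 and 0.37, 0.37 and 0.25 with TGF-β1, with no overlap.

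Lysosomal genes had 10 lower and 0 higher of 42 (median -0.23), including Grn (-0.62), Tpp1 (-0.43) and Ctso (-0.72), while Lamp1 differed by -0.05 (adjusted p = 0.70). Cilium genes had 17 lower and 0 higher of 47 (median -0.30), including Wdr19 (-0.66) and Ift140 (-0.45) of the retrograde transport complex and Kif3a (-0.39), a motor subunit. Without the arrays numbered 2, the called counts of these 4 lists were 11, 7, 3 and 3, with medians of 0.22, 0.33, -0.22 and -0.27. All genes then gave 259 higher and 326 lower (1.42% and 1.79%). Angiotensin and membrane peptidase genes had 1 higher and 5 lower of 13. Agtr1a and Agtr2, the angiotensin II receptors, fell with each factor. Agtr1a read 1.27, 1.46 and 0.93 untreated, -0.04, -0.29 and -0.20 with BMP4 and -0.07, 0.26 and 0.00 with TGF-β1, a fall of 1.28. Both receptors and the peptidase Enpep were lower on all treated than on all untreated arrays, as were 5.83% of all genes. For Enpep that was set by its choice, and this list too was drawn up after the values had been seen. Ece2 rose by 0.42.

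**Figure D5:**
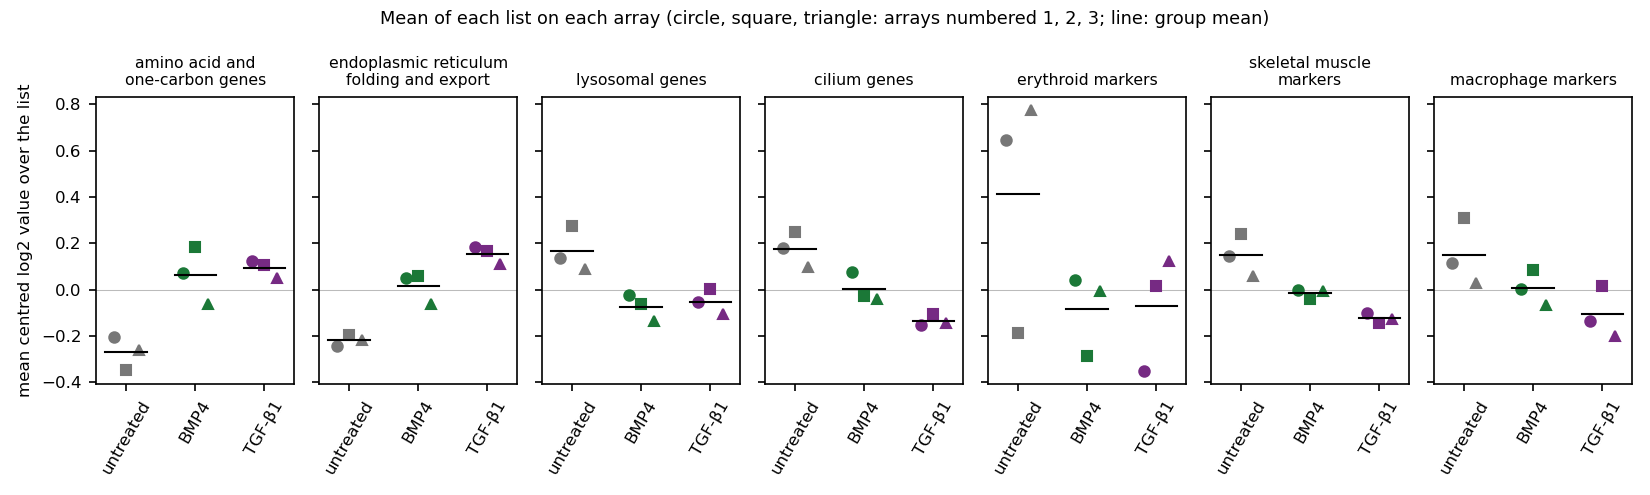
Mean centred log2 value over each list (y axis) on each of the 9 arrays, by treatment (x axis); symbols mark arrays numbered 1, 2 and 3 and lines the group means. The untreated arrays lie below all treated ones for the amino acid and endoplasmic reticulum genes. They lie above all treated ones for the lysosomal and cilium genes and also for the skeletal muscle markers. The amino acid, endoplasmic reticulum, lysosomal and cilium lists were drawn up after the values had been seen, so their separation is no test. For erythroid markers the untreated arrays spread from -0.19 to 0.77.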

How the data were processed

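RNA from 9 micromass cultures was amplified in cDNA cycles and hybridised to Affymetrix Mouse 430 2.0 arrays. Per the labels and the methods, the authors derived the deposited log2 values from scanner files with the RMA method in GeneSpring (no version stated). The median of each of the 45101 deposited probe sets over the 9 arrays was 0 (tolerance 1e-06), so levels and background could not be judged and no filter on dim probe sets was applied. The number of arrays limits the precision.

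Samples were grouped by their titles. The 64 control probe sets were left out. Of 45037 probe sets, 34945 carried 1 gene symbol, 932 several and 9160 none; 34741 matched RefSeq by Entrez identifier and 0 symbols changed. Each of 18193 genes was represented by its probe set of largest variance. The means of the 3 groups were fitted with limma 3.58.1 in R 4.3.3 (6 residual degrees of freedom), a script that was also tested on simulated data, and two-sided p values were adjusted over all 45037 probe sets (Benjamini-Hochberg); called means adjusted p under 0.05. The methods' own test, with unequal variances and a 2-fold limit, was an alternative, beside other scalings, filters, array weights, a replicate block and arrays left out.

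The members, the 42 gene lists (1439 of 1511 symbols measured) and the tests were chosen with earlier results of these data known, and 5 further lists after their values were seen. Named genes are the 12 rises and 12 falls with the largest smaller change among called genes with separated arrays, up to 3 called members of each list, together 103 genes, and 72 other list genes a sentence needed, chosen with their values seen. All 175 were recomputed under the alternatives. Gene coordinates were not used except for promoters, taken from RefSeq (GRCm38.p6). Python 3.11.15 with matplotlib 3.10.9 drew the figures.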

Additional observations from a re-analysis of the deposited data

Results flagged for a closer look

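Among the 175 genes given with values, 78 called members had changes that differed between the factors in a test of that difference (TGF-β1 minus BMP4, limma, adjusted p from 1.06e-05 to 0.0491). Values below are TGF-β1 minus BMP4 in log2 units. Most of these genes passed the test against untreated with 1 factor only, so that their place in the common response rests on the sign of the other change.

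With a larger positive change with BMP4 there were 23 genes, of which 5 passed with each factor, Cux2 (-0.83), Fgfrl1 (-0.67), Hey2 (-1.57), Rgs5 (-0.70) and Smad7 (-0.71). The other 18 passed with BMP4 and not with TGF-β1. These were Acan (-1.52), Bambi (-1.83), Bmper (-1.21), Cdh22 (-1.37), Cxcr4 (-0.59), Cyp26b1 (-1.50), Dlx2 (-2.98), Fosl2 (-1.51), Gata2 (-1.54), Hey1 (-1.44), Klf2 (-0.93), Myc (-0.91), Nkd1 (-0.53), Nog (-2.97), Nr4a3 (-1.16), Ntng1 (-1.68), Papss2 (-2.21) and Sox9 (-1.73). With a larger positive change with TGF-β1 there were 17 genes, of which 8 passed with each factor, Aldh1a1 (0.73), Cda (0.96), Fkbp11 (0.36), Fst (0.70), Fstl3 (0.67), Herpud1 (0.49), Htra1 (1.17) and Nkd2 (0.57). The other 9 passed with TGF-β1 and not with BMP4. These were Adamts20 (0.90), Adamts6 (1.23), Bgn (0.53), Fbln5 (0.94), Fgf21 (1.73), Fmod (2.26), Fn1 (0.81), Pmepa1 (1.51) and Rgs10 (1.10).

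With a larger negative change with BMP4 there were 24 genes, of which 5 passed with each factor, Foxd1 (0.41), Igfbp5 (1.42), Smad3 (0.57), Smoc2 (1.39) and Synpo2 (0.51). The other 19 passed with BMP4 and not with TGF-β1. These were Adamts18 (0.80), Angptl1 (0.69), Crabp2 (1.98), Egfr (1.10), Fgf5 (0.83), Foxp1 (0.88), Gdf5 (0.90), Gfra1 (0.65), Igf1 (1.48), Il33 (2.31), Inhbb (0.46), Lgr5 (0.93), Nrp2 (0.68), Rgma (0.35), Tbx18 (0.59), Twist1 (0.70), Uncx (0.94), Wnt11 (0.61) and Wnt5b (1.04). With a larger negative change with TGF-β1 there were 14 genes, of which 5 passed with each factor, Ebf2 (-0.41), Enpep (-1.36), Lpl (-0.60), Maf (-1.26) and Sned1 (-0.92). The other 9 passed with TGF-β1 and not with BMP4. These were Ebf1 (-1.01), Epas1 (-0.87), Kitl (-0.97), Mrc1 (-0.49), Nrp1 (-0.73), Rspo2 (-0.80), Serping1 (-0.55), Tgfb2 (-0.71) and Wnt5a (-0.54).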

How the results depend on the processing

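Of the 175 genes given with values, 170 were called, and these kept their direction under all alternatives run. Of the 5 not called, Hspa5 read -0.0079 with array weights and -0.054 to 0.13 with each array left out, and Ddit3 read -0.0085 as the mean over its probe sets and -0.12 to 0.14 with each array left out. Probe set counts of the mean contrast were 673 higher and 1139 lower, and those called with each factor 185 and 370. A fit with 2 groups, treated and untreated, gave 173 and 375 in the mean contrast, and 97 of the 170 calls were lost. Calls lost were 46 without the untreated array numbered 1, 38 without that numbered 2, 22 without that numbered 3 and 40 without the 3 arrays numbered 2. With the mean over all probe sets of a gene in place of 1 probe set, 12 calls were lost. These were Adamts18, Ece2, Fbln1, Fgf5, Foxp1, Gfra2, Kitl, Lgr5, Nkd1, Tcf4, Ucma and Vcam1. Each factor fitted alone with the untreated arrays gave 111 and 190 called with each factor. Adding a 2-fold limit left 68 and 106 in the mean contrast and 19 and 41 with each factor. The methods' test with a 2-fold limit gave 21 and 40 unadjusted and 0 and 0 after Benjamini-Hochberg adjustment. The numbers do not pair the arrays by the labels, and the correlations of same-numbered deviations ran from -0.05 to 0.50, with 8 of 9 arrays closest to an array of their own number; with the replicate block the counts were 1310 and 2037, and 407 and 760, and all 1812 calls of the mean contrast held. Without the 3 arrays numbered 2 they were 374 and 489, and 82 and 144. Leaving out each array in turn gave 399 to 576 higher and 511 to 1110 lower, and 99 to 151 and 158 to 417 with each factor. TGF-β1 minus BMP4 was called for 558 probe sets called in the mean contrast with 1 sign; alternatives chosen after seeing the data gave 1181 with the replicate block, 324 without the arrays numbered 2 and 338 to 516 with each array left out. Quantile scaling, repeated centring, robust moderation and array weights kept all counts within 1.5 times, as did the filter on variance. Causes were not tested. Without levels, dim probe sets could not be told from bright ones.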
